A study of Mus musculus with 128 samples.

Results

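The 10 genes described here are those listed as the lipogenesis genes: Fasn, Acaca, Acly, Scd1, Elovl6, Srebf1, Me1, Thrsp, Mlxipl and Pnpla3. They were matched by symbol to the single-cell read count table, and all 10 were found among its 40824 genes. Lipogenesis is the making of fatty acids and triglyceride from sugar-derived carbon, and the liver does much of it after a meal. In the cytosol, Acly cuts citrate into acetyl-CoA, Acaca carboxylates it to malonyl-CoA, Fasn builds palmitate from both with NADPH that Me1 helps to supply, Elovl6 lengthens the chain and Scd1 puts in a double bond. Srebf1, whose liver form answers insulin, and Mlxipl, also called ChREBP, which answers glucose, are the transcription factors best known for turning these enzymes on, Thrsp (Spot 14) is a carbohydrate- and thyroid hormone-responsive target, and Pnpla3 is a lipid droplet protein.

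The series follows liver cells of mice in which Pard3, a cell polarity gene, or Yap1 is removed, through embryonic development, birth, tissue culture and regrowth after partial hepatectomy. Its RNA libraries were made with Smart-seq3xpress, a full-length method that reads cells one by one, and 22 ATAC-seq libraries map open chromatin. Wild-type embryos were B6C3F1, a cross of C57BL/6 and C3H, from E11.5 to E19.5 (18 libraries at 8 ages, 2 or 3 each). The Foxa3-Cre lines were C57BL/6. Their controls carried Foxa3-Cre alone, so Cre was present in controls and knockouts alike. Pard3HMKO were Foxa3-Cre with Pard3-fl/fl, YapHMKO were Foxa3-Cre with Yap-fl/fl, and the double knockouts carried both floxed genes. Alfp-Cre mice, with and without Pard3-fl/fl, were sampled at E17.5. Foxa3-Cre is driven from a gene of the early gut and liver endoderm, and Alfp-Cre from albumin and alpha-fetoprotein regulatory sequence. Cultures were E15.5 liver tissue kept for 2 days with no compound, with PD, with U0126, with TPPB, or with TPPB plus PD, in Pard3WT, Pard3HMKO, YapWT or YapHMKO tissue. U0126 is an inhibitor of MEK and TPPB an activator of protein kinase C. The labels do not spell out PD and give no doses. Adult mice were P60, all Pard3-fl/fl. The knockouts had received the AAV-Tbg-Cre virus, whose promoter is active in hepatocytes, and the controls are labelled with hepatectomy only, with no virus named, so virus and deletion cannot be told apart. They were sampled on days 0, 2 and 7 of a 70% hepatectomy, with 4 Pard3WT and 6 Pard3HMKO libraries on day 7. Every other knockout or culture group held 2 RNA libraries. For every P60 knockout library, on each hepatectomy day alike, the labels give 7 days after virus injection.

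The sequence just before the start is shown first for 5 members, chosen after the matches and peaks were seen: Mlxipl for its sterol element and E-box, Fasn and Thrsp for repeated CCAAT boxes, Acly for the most GC boxes, Srebf1 for a window with both boxes, and Thrsp also because its peak was present in some conditions and not in others. RefSeq promoter windows of GRCm38.p6 were found for 9 of the 10 members, 13 windows in all, since Srebf1 has 3 alternative starts and Me1 and Mlxipl have 2 each. Scd1 (chr19:44394450-44407709) had no entry. Each line is the 250 bases 5′ of the start, read along the gene's own strand, and capitals mark matches to the motifs.
Fasn, chr11:120824548-120824797, minus strand: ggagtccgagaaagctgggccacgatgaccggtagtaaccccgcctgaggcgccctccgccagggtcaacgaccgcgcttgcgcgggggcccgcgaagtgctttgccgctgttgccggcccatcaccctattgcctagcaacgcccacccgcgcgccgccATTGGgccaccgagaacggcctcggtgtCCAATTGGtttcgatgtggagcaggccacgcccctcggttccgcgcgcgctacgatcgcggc
Acly, chr11:100528001-100528250, minus strand: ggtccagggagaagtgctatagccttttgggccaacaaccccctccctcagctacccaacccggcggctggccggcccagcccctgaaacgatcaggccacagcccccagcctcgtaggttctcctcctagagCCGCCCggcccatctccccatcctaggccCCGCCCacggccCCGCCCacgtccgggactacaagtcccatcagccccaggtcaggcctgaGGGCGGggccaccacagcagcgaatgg
Srebf1, the third window, chr11:60210472-60210721, minus strand: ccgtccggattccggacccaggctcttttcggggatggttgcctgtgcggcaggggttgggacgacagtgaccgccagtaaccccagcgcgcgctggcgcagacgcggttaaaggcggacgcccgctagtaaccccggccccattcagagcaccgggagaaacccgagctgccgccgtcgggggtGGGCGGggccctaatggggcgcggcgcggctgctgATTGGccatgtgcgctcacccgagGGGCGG
Thrsp, chr7:97417551-97417800, minus strand: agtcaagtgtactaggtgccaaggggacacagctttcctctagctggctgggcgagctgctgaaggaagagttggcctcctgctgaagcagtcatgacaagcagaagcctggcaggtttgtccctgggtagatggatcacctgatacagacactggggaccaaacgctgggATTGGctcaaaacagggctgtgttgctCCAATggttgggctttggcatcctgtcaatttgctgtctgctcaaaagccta
Mlxipl first window, chr5:135106641-135106890, plus strand: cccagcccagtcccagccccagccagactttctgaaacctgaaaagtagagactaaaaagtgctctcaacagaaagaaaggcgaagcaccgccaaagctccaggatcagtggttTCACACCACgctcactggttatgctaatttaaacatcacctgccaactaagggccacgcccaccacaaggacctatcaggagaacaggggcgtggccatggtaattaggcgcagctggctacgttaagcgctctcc
Mlxipl second window, chr5:135089640-135089889, plus strand: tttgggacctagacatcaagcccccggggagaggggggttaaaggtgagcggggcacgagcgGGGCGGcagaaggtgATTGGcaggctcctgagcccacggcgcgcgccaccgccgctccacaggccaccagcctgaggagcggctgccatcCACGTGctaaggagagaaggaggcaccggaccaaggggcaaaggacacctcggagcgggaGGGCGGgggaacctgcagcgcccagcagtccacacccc

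On both strands, the sterol response element TCACNCCAC, a sequence that SREBP proteins bind, was searched for and occurred in 1.05% of all 32851 promoter windows. Among the members it matched once, in the first Mlxipl window. The E-box CACGTG, bound by basic helix-loop-helix factors, occurred in 6.02% of windows and in 1 member, Mlxipl, at -98 to -93 of the second window. The paired form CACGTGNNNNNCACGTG, an exact form of the carbohydrate response element that ChREBP binds, matched no window at all in this length. The direct repeat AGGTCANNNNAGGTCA, bound by the LXR receptors, matched 0.0152% of windows and no member. Letters this strict match almost no window, so the lack of a match does not tell whether a member holds a looser form. The CCAAT box was in 33.8% of windows and in 7 of the 13 windows of the members, which belong to 6 genes. Fasn held 3 copies, at -90 to -86 and at -62 to -58 and -59 to -55, the last pair overlapping in the palindrome CCAATTGG, and Thrsp held copies at -79 to -75 and -52 to -48. The GC box GGGCGG was in 32.7% of windows and in 6 of the 13 windows of the members, which belong to 5 genes, and Acly held 4 copies. A letter match is a description of the window and not a bound site.

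Open chromatin peaks, as the authors called them in each library of 1000 cells, were compared with the promoter windows, and 1 shared base counted as overlap. Between 6 and 8 of the 9 members had a peak over a window in each library, against 32.5% to 41.1% of all genes with a window. When 50% of the peak had to lie in the window, 0 to 5 members had one. The share of all genes under that stricter rule was not computed, so this count has no background. A peak was present in all 22 libraries at Fasn, Acly, Elovl6, Pnpla3, the first Mlxipl window and the second and the third Srebf1 windows. Thrsp differed: its promoter had a peak in 9 of 12 E17.5 liver libraries and in 0 of 10 culture libraries. Those culture libraries were all of Pard3WT or Pard3HMKO tissue. The YapWT and YapHMKO cultures, in which Thrsp RNA was read, had no ATAC library. Within E17.5, that peak was present in 3 of 3 Pard3WT, 2 of 3 Pard3HMKO, 3 of 3 YapWT and 1 of 3 libraries labelled YapHMKO. Where called, it had a caller's score of 59.0 to 104.57, near the lowest deposited score of 50. The culture lists held 24270 to 45898 peaks and the E17.5 lists 35144 to 44506. How many other genes had a peak in liver and none in culture was not counted. The first Me1 window had a peak in 12 of 22 libraries. Acaca (chr11:84129635-84401651) had no peak at its RefSeq window, which lies inside the gene at chr11:84195188-84195437, in any library. Inside the whole Acaca gene, Pard3WT libraries had 9, 9 and 10 peaks and Pard3HMKO libraries 4, 2 and 3. YapWT libraries had 14, 8 and 8 peaks and the libraries labelled YapHMKO 4, 5 and 4. Acaca counts were lower with no overlap in Pard3HMKO and in the libraries labelled YapHMKO, as were those at Thrsp in Pard3HMKO, where 2, 2 and 2 peaks stood against 1, 0 and 0. Of all genes with a peak, 4.59% had fewer peaks with no overlap in Pard3HMKO and 4.38% in the libraries labelled YapHMKO, so 2 and 1 of the 10 members are to be read against those shares. The peak lists hold no coverage, and no test was made.

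The RNA libraries held 7 to 133 cells and 4506130 to 86188713 reads, with a median of 622917 reads and 7548.5 genes in a cell. Counts were summed over the cells of each library, and levels are given as CPM, read counts scaled for library size and composition within 4 sets: wild-type embryos, Cre lines in vivo, cultures, and P60 livers. CPM values of different sets should not be compared except where a joint scaling is named. The labels do not say that libraries of a group came from separate animals, so p-values measure the spread between libraries, which may be technical. Of 4264 cells, 1521 (35.7%) held reads for at least 50% of the markers of another cell type, most often erythroid (882 cells) or macrophage (491), then stellate (63), cholangiocyte (59), endothelial (22) and lymphoid (4), and 0 held those of adipocytes. The 9 hepatocyte markers found summed to between 6139 CPM, in a Pard3WT culture with TPPB, and 220057, in an E17.5 Pard3WT liver. Pard3 reads passed the test in no Pard3HMKO group (log2 fold changes from -0.50 in culture to 0.50 at E17.5), but they were counted over the whole gene and the deleted exons are not given, so this checks nothing. Yap1 was lower in YapHMKO at E15.5 (log2 fold change -5.02, adjusted p = 8.22e-06) and in culture (-5.33, adjusted p = 1.83e-07), but not in the libraries labelled YapHMKO at E17.5 (0.67, adjusted p = 0.405) nor in the labelled double knockouts (0.53, adjusted p = 0.54). Statements on those E17.5 groups are therefore statements on labels. Where a summed level is lower, the sum alone does not tell fewer expressing cells from less RNA in each cell. Values of single cells are given beside some results only.

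Levels can be compared between genes only per unit of transcript length, which the authors' length-normalised table gives for 4 control libraries. At E19.5, in Foxa3-Cre Pard3WT livers, Acly was the highest at 17.01 and 16.81 length-normalised units per library, followed by Scd1 at 9.921 and 13.09, Elovl6 at 6.251 and 8.093, Srebf1 at 5.898 and 6.76, and Fasn at 3.848 and 4.081. The order of those enzymes held in both libraries, but Elovl6 and Srebf1 overlapped. Thrsp, Me1, Acaca, Mlxipl and Pnpla3 lay at 1.511 or below in both. At P60 before hepatectomy the order was another: Thrsp stood at 54.5 and 12.9 and Scd1 at 20.87 and 41.28 length-normalised units, overlapping each other and above all other members, while Acly was at 2.841 and 1.95 and Pnpla3 at 0 and 0.001858.

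The members did not vary as 1 block. Over the 49 RNA groups, the correlation of log2 group means (CPM plus 1) between members was above 0 in 35 of 45 pairs, with a median of 0.328. It ran from -0.521 for Thrsp and Pnpla3 to 0.893 for Fasn and Acly. Srebf1 followed the mean of the other 9 most closely (0.766), then Acaca (0.755), Acly (0.745), Scd1 (0.700), Fasn (0.677) and Elovl6 (0.604), whereas Mlxipl (0.399), Thrsp (0.181), Pnpla3 (0.161) and Me1 (0.0569) followed it little. Outside the members, the 6 likest of 10261 genes ranked were Acss2 (0.856), which makes acetyl-CoA from acetate, Aldh7a1 (0.822), Tm7sf2 (0.821), a sterol reductase, Dbi (0.817), an acyl-CoA binding protein, Idh1 (0.817), a cytosolic source of NADPH, and Gstm6 (0.815). These correlations are descriptions, since the groups share controls and library preparation. Thrsp had 0 reads in 32 RNA libraries and Pnpla3 in 5. Every other member was read in each library. Pnpla3 came from few cells: 10 of 50 cells held its reads in the first E11.5 Foxa3-Cre Pard3WT library, and 51.2% of those reads were in 1 cell.

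In wild-type B6C3F1 embryos, 6 of the 10 members rose with embryonic day and none fell, against 18.5% of genes higher and 17.1% lower over the 15662 genes tested. Elovl6 rose most steadily, from 64.6 and 77.9 CPM at E11.5 through 92.0 and 91.4 at E14.5 to 208 and 223 at E17.5 and 189 and 167 at E19.5, a slope of 0.22 ± 0.03 (SE) log2 units a day (edgeR quasi-likelihood test, adjusted p = 1.03e-05). Slopes were 0.17 ± 0.04 for Srebf1 (adjusted p = 0.00223), 0.16 ± 0.04 for Mlxipl (adjusted p = 0.0017) and 0.14 ± 0.04 for Acaca (adjusted p = 0.00618). Thrsp had 2 reads at E11.5, none in the 12 libraries from E12.5 to E16.5, then 8.40 and 5.89 CPM at E17.5 and 3.98 and 3.35 at E19.5 (adjusted p = 4.93e-05). In the second E19.5 library 88.5% of its reads came from 1 cell. Scd1 also passed (0.15 ± 0.05, adjusted p = 0.0391), but not without any 1 of 7 libraries, with slopes from 0.11 without either E17.5 library to 0.16 without the first E19.5 library. When each cell was weighted equally only Elovl6 and Thrsp passed, and Acaca (0.04), Scd1 (0.04), Srebf1 (0.11) and Mlxipl (0.06) did not. Fasn (0.00), Acly (0.06), Me1 (0.06) and Pnpla3 (0.12) had slopes that missed the threshold.

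The course was not a straight line. Acly stood at 173 and 177 CPM at E11.5, at 171, 173 and 190 at E16.5, at 512 and 455 at E17.5, and at 195 and 174 at E19.5. Fasn went from 65.3, 65.1 and 70.9 CPM at E16.5 to 194 and 187 at E17.5, and Scd1 from 72.3, 66.1 and 105.8 to 269 and 249, so the E17.5 libraries lay above those of E16.5 for all of these genes. The E15.5 and E16.5 libraries were the shallowest of the set. Cells with only Xist reads were 109 of 128 and 105 of 133 at E17.5. They were 12 of 42, 18 of 42 and 16 of 34 at E16.5, and 9 of 51 and 20 of 67 at E19.5. The part of sex in this course was not tested. From E17.5 to E19.5, 2 of the 10 members fell and none rose, against 6.45% of genes lower and 4.44% higher: Acly by 1.39 ± 0.12 (adjusted p = 5.33e-07) and Scd1 by 1.10 ± 0.24 log2 units (adjusted p = 0.00518). Without the second E19.5 library the Scd1 change was -0.86 and missed the threshold (adjusted p = 0.107). Of the 44 other genes of fatty acid and triglyceride synthesis tested, 22 rose with day and 5 fell. Acsl1, which activates fatty acids, rose by 0.37 log2 units a day, Acsl5 by 0.51, Lpin1, a phosphatidate phosphatase, by 0.70 and Agpat3 by 0.36. Of 20 cholesterol synthesis genes, 4 rose and 6 fell.

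**Figure D1:**
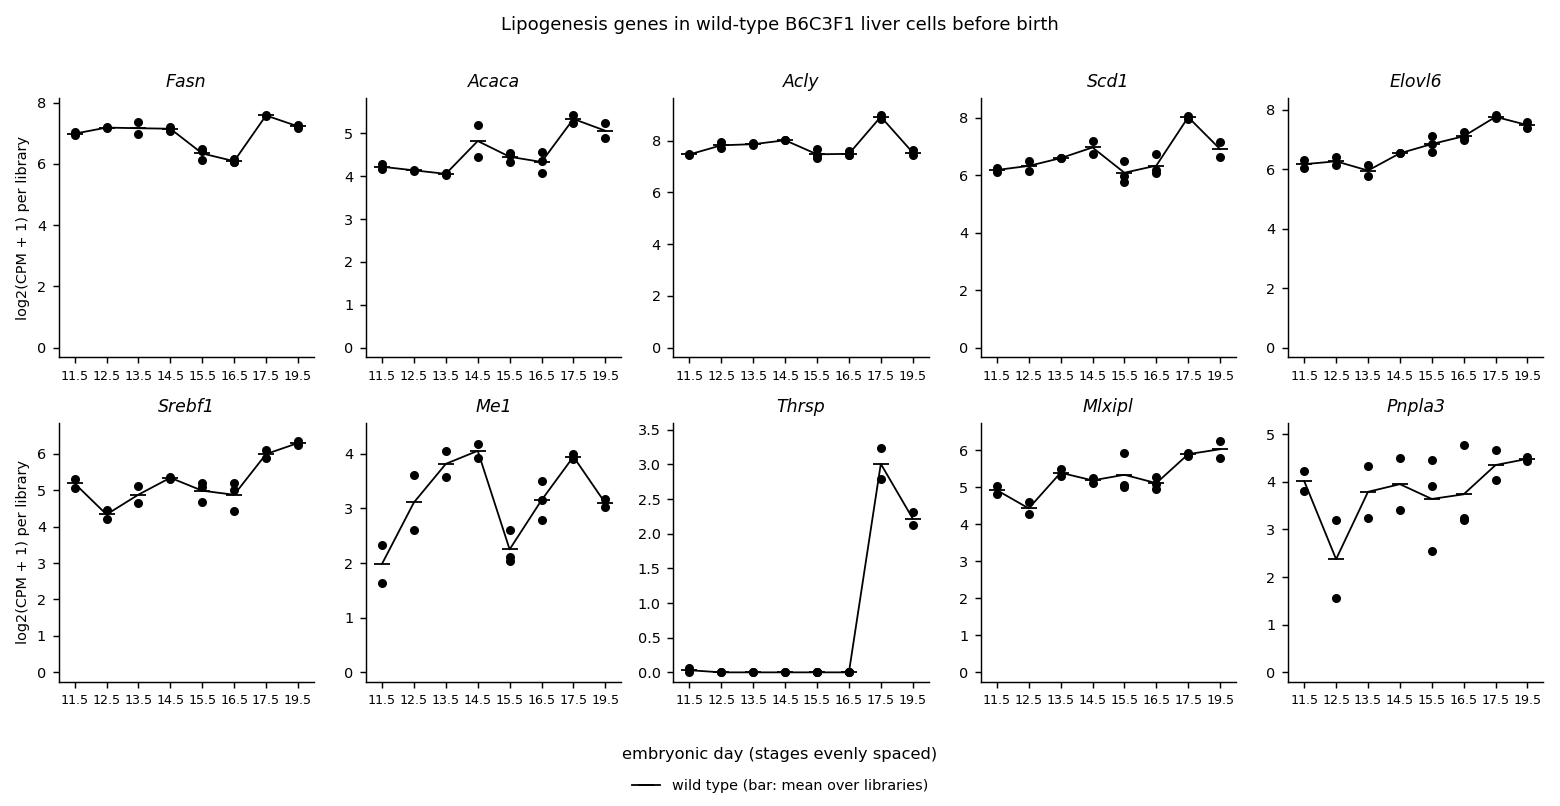
Level of each of the 10 genes in wild-type B6C3F1 liver by embryonic day, as log2(CPM + 1). Each point is a library, each bar the mean of a day, and lines join the means. Acly, Fasn and Scd1 are highest at E17.5, where Acly reaches 512 and 455 CPM, and Thrsp is at or near 0 until E16.5. Most E17.5 cells held only Xist reads, and the part of sex was not tested.

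In the Foxa3-Cre Pard3WT controls the members had another course. From E11.5 to E15.5, 5 rose and 2 fell, against 16.9% of genes higher and 11.6% lower of 18572 tested. Scd1 went from 30.5 and 29.0 to 69.1 and 114 CPM (1.62 ± 0.34, adjusted p = 0.000573), Mlxipl from 5.49 and 6.82 to 21.7 and 18.9 (1.72 ± 0.23, adjusted p = 1.47e-07) and Me1 from 2.77 and 2.73 to 8.43 and 8.29 (1.60 ± 0.28, adjusted p = 2.54e-05). Each of these 3 genes was higher in both E15.5 libraries. Acly rose by 0.75 ± 0.15 (adjusted p = 0.000106), but by 0.01 when cells were weighted equally. Fasn (-0.50), Acaca (-0.60) and Elovl6 (0.42) passed less firmly: without the first E11.5 library their adjusted p-values were 0.114, 0.332 and 0.112, and without the first E15.5 library 0.172, 0.118 and 0.217. Elovl6 turned to -0.21 with cells weighted equally and was also lost without the second library of either day, and Acaca without the second E15.5 library. At E13.5 Srebf1 stood at 103 and 76.7 CPM, above 42.8 and 44.7 at E11.5 and 47.5 and 47.4 at E15.5.

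From E15.5 to E17.5, 2 members rose and 3 fell in these controls (10.9% of genes higher, 10.6% lower). Srebf1 fell from 47.5 and 47.4 to 17.4 and 22.0 CPM, by 1.27 ± 0.20 log2 units (adjusted p = 6.39e-06). Elovl6 rose by 0.64 (adjusted p = 0.00245, and 0.0639 without the second E17.5 library), but changed by -0.044 with cells weighted equally, and by the same test Thrsp rose from 0 to 96 reads, at least 32.1-fold against a floor of 3 reads over the group (adjusted p = 0.0174). Thrsp missed the threshold without either E15.5 library or the first E17.5 library, with adjusted p from 0.0524 to 0.148. Fasn (-0.44, adjusted p = 0.0432) and Acly (-0.42, adjusted p = 0.0373) were lost on leaving out some single libraries, with Fasn at -0.33 without the second E15.5 library and -0.32 without the first E17.5 library, and Acly at -0.27 without the first E15.5 library and -0.25 without the second E17.5 library.

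From E17.5 to E19.5, 7 of the 10 rose and none fell (9.66% of genes higher, 9.4% lower), and the median change of the members was 1.90 log2 units. Fasn went from 62.2 and 74.7 CPM to 237 and 260, Acly from 136 and 106.3 to 495 and 488, and Scd1 from 69.7 and 59.8 to 308 and 401. Every E19.5 library was above every E17.5 library for each of them. Srebf1 rose most, from 17.4 and 22.0 to 165 and 191 CPM (3.18 ± 0.21, adjusted p = 1.75e-13), then Scd1 (2.45 ± 0.35, adjusted p = 9.72e-06), Acly (2.02 ± 0.15, adjusted p = 5.3e-12), Acaca (1.93 ± 0.21, adjusted p = 1.1e-08), Fasn (1.86 ± 0.16, adjusted p = 2.06e-10), Me1 (1.59 ± 0.28, adjusted p = 5.5e-05) and Elovl6 (1.27 ± 0.16, adjusted p = 1.86e-07). All 7 calls held under every alternative. Thrsp (13.46 and 5.70 CPM at E19.5), Mlxipl (20.4 and 17.8) and Pnpla3 (9.01 and 19.9) did not pass. At E17.5 the AlfpCre Pard3WT livers held 311 and 289 CPM of Acly and 119 and 136 of Srebf1, above the 136 and 106.3 and the 17.4 and 22.0 CPM of Foxa3-Cre Pard3WT livers of that day. That difference between lines was not tested. Cells with only Y-linked reads were 54 of 55 and 57 of 60 in the Foxa3-Cre Pard3WT libraries at E17.5. They were 9 of 61 and 16 of 71 at E19.5, and 18 of 53 and 13 of 56 in the AlfpCre Pard3WT livers. The part of sex in these differences was not tested. Of the 45 other lipid synthesis genes 15 rose and 4 fell, and of the 20 cholesterol synthesis genes 10 rose and 1 fell.

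Across birth the core of the pathway fell in the control livers. From E19.5 to P0, 6 of the 10 members fell and 1 rose, against 7.17% of genes lower and 7.23% higher. Their median change was -2.55 log2 units, with 0.00 over all genes. Scd1, the desaturase, went from 308 and 401 CPM to 4.87 and 2.93, a fall of 6.51 ± 0.43 log2 units (adjusted p = 1.28e-11). Acly went from 495 and 488 to 38.2 and 53.3 CPM (-3.43 ± 0.16, adjusted p = 2.17e-17) and Fasn from 237 and 260 to 30.0 and 29.6 (-3.06 ± 0.17, adjusted p = 2.02e-15). In all of these genes both P0 libraries were far below both E19.5 libraries. Elovl6 went from 242 and 320 to 37.4 and 49.8 CPM (-2.69 ± 0.16, adjusted p = 1.54e-14), Srebf1 from 165 and 191 to 28.9 and 38.4 (-2.40 ± 0.20, adjusted p = 2.73e-11) and Acaca from 60.6 and 61.7 to 15.8 and 24.6 (-1.60 ± 0.20, adjusted p = 2.62e-07). The 6 falls held under every alternative. Mlxipl went the other way, from 20.4 and 17.8 to 26.5 and 38.4 CPM (0.77 ± 0.22, adjusted p = 0.0128). This rise missed the threshold without the second P0 library (0.47, adjusted p = 0.323) or the second E19.5 library (0.67, adjusted p = 0.144), with cells weighted equally (adjusted p = 0.0587), with no filter on low counts (0.0507), with only the compared libraries (0.0519) and without cells holding other markers (0.227). Me1 (-0.56), Thrsp (-3.68) and Pnpla3 (-1.98) did not pass.

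The fall of Scd1 was also seen cell by cell. The median cell of the E19.5 control libraries held 225 and 277 CPM of Scd1, and all 61 and 71 cells had a read. At P0 the median cell held 0 CPM, and 26 of 58 and 23 of 60 cells had a read. Beside this, several marker lists differed between the libraries. The macrophage markers summed to 91.3 and 179.8 CPM at E19.5 and 586.1 and 200.5 at P0, and the adipocyte markers to 13.8 and 0.2 CPM and to 133.7 and 105.3. Cells with only Y-linked reads were 9 of 61 and 16 of 71 at E19.5 and 50 of 58 and 50 of 60 at P0. The part of cell type and sex in the change was not tested. Without the cells that held other markers the 6 falls stayed past the threshold, with 11 and 17 cells left at P0.

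The wider pathway did not fall as a whole. Of the 45 other genes 13 fell and 11 rose. Scd2, a close relative of Scd1, fell from a mean of 1025 to 7.74 CPM (-7.05 log2 units), Acss2 from 149 to 7.93 (-4.23), and Tecr, the reductase of fatty acid elongation, by 1.27, while Elovl2, an elongase of long polyunsaturated chains, rose by 1.91. How the counting treated reads that match both Scd1 and Scd2 is not given in the sources used here, so the split between these paralogs is uncertain. Of the 20 cholesterol synthesis genes 18 fell and none rose.

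From P0 to P14 in the controls, 2 members rose and 3 fell further (8.31% of genes higher, 11.1% lower). Elovl6 fell from 37.4 and 49.8 to 3.42 and 4.62 CPM (-3.44 ± 0.18, adjusted p = 3.2e-16) and Fasn from 30.0 and 29.6 to 13.6 and 15.7 (-1.03 ± 0.17, adjusted p = 1.28e-05). Me1 rose from 15.9 and 17.7 to 45.1 and 48.5 CPM (1.48 ± 0.27, adjusted p = 9.13e-05). Every P14 library lay outside the P0 range for these genes, but without cells holding other markers Me1 had an adjusted p of 0.117. Thrsp went from 1.49 and 0 to 34.0 and 24.6 CPM (5.29 ± 1.64, adjusted p = 0.0209), but missed the threshold without the second P0 library (4.30, adjusted p = 0.16) or the first P14 library (5.04, adjusted p = 0.0684). Srebf1 fell by 0.81 (adjusted p = 0.00212), a call lost without the same libraries (adjusted p = 0.0908 and 0.0999). Scd1 stayed low at 3.58 and 8.43 CPM. Of the 45 other genes 9 rose and 13 fell, with Insig2, which holds SREBP proteins back (3.19), Khk, the fructose kinase (2.43), and Idh1 (1.22) among the rises and Acsl5 (-1.53) among the falls, and of the cholesterol genes 17 fell and 1 rose.

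**Figure D2:**
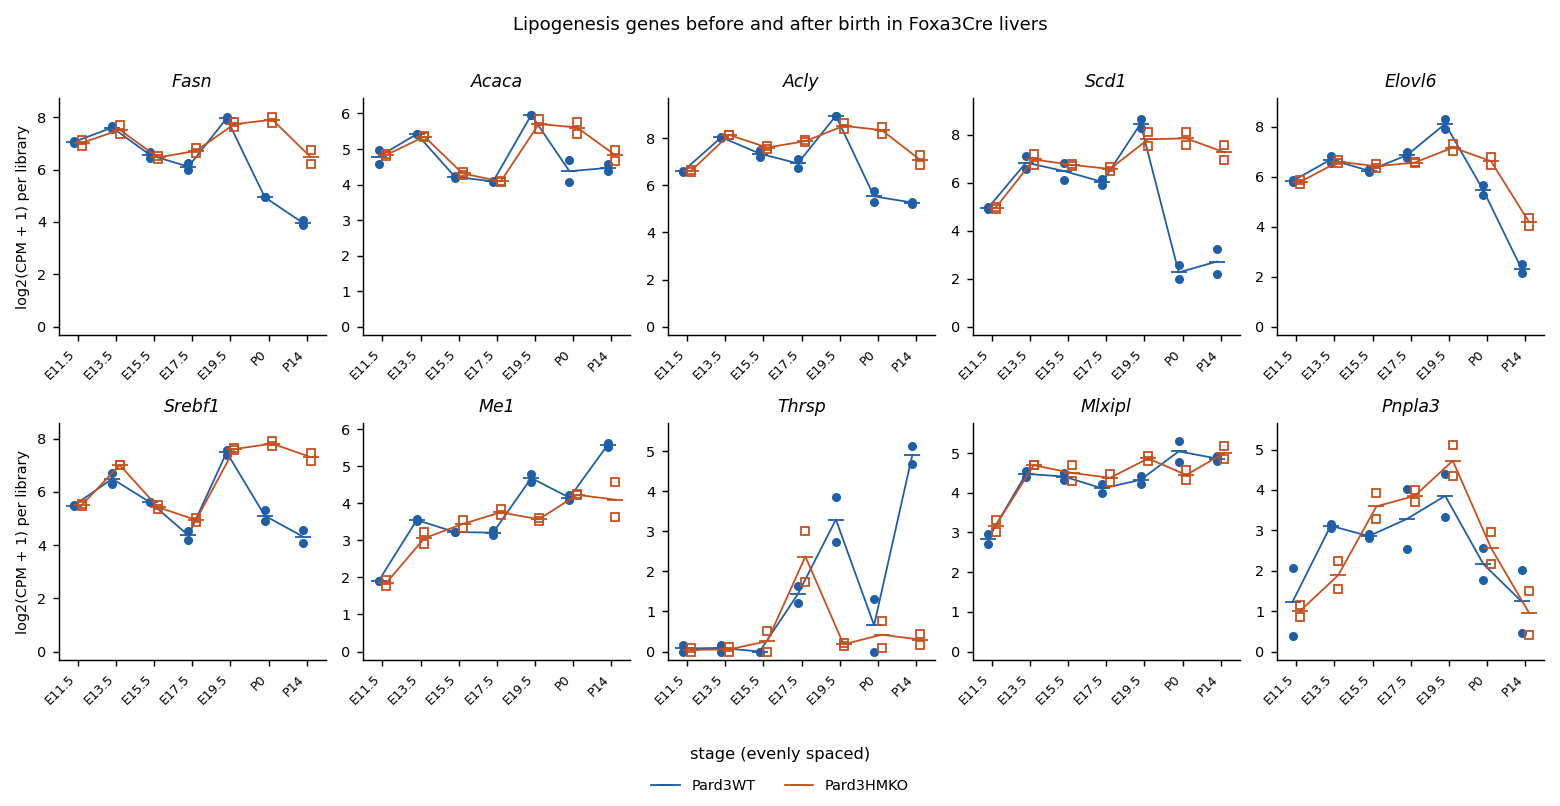
Level of each of the 10 genes in Foxa3-Cre livers from E11.5 to P14, as log2(CPM + 1), with Pard3WT controls as blue circles and Pard3HMKO as open orange squares. Points are libraries, bars are means and lines join the means. From E19.5 to P0 the controls drop for Fasn, Acaca, Acly, Scd1, Elovl6 and Srebf1, with Scd1 at 4.87 and 2.93 CPM at P0, while in Pard3HMKO Elovl6 goes from 157 and 132 to 110 and 87.5 CPM and Scd1 from 276 and 182 to 274 and 192.

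In Pard3HMKO livers, Elovl6 was the 1 member that passed the threshold from E19.5 to P0, from 157 and 132 to 110 and 87.5 CPM (-0.55 ± 0.16, adjusted p = 0.0352), with 3.13% of genes lower and 1.05% higher. It missed the threshold without either E19.5 library (-0.42 and -0.67) or the second P0 library (-0.39). Fasn stood at 226 and 199 CPM before and 258 and 221 after birth, Acly at 395 and 337 and then 358 and 291, and Scd1 at 276 and 182 and then 274 and 192, so the libraries of both days overlapped for each. The difference between the birth changes of both genotypes was itself tested, and it passed in 8 of the 10 members, 7 higher and 1 lower in Pard3HMKO, with 4.42% of genes higher and 5.82% lower. It was 6.53 ± 0.52 log2 units for Scd1 (adjusted p = 1.29e-09), 3.25 ± 0.21 for Acly (adjusted p = 3.58e-13), 3.23 ± 0.23 for Fasn (adjusted p = 2.67e-12), 2.61 ± 0.27 for Srebf1 (adjusted p = 1.11e-08), 2.14 ± 0.22 for Elovl6 (adjusted p = 9.29e-09) and 1.497 ± 0.28 for Acaca (adjusted p = 0.000257). Those for Me1 (1.27, adjusted p = 0.0264) and Mlxipl (-1.19, adjusted p = 0.00805) were lost on leaving out single libraries, and those of Acaca, Me1 and Mlxipl without the cells holding other markers (adjusted p = 0.195, 0.909 and 0.725). For Me1 this held for each of 7 of the 8 libraries, with values from 1.14 without the first E19.5 Pard3WT library to 1.35 without the second P0 Pard3WT library. For Mlxipl the values were -0.90 without the second P0 Pard3WT library, -1.06 without the second P0 Pard3HMKO library and -1.10 without the second E19.5 Pard3WT library. Leaving out the cells with other markers left 6 and 0 Pard3HMKO cells at P0, so 1 knockout library stood for that day. Of the 45 other genes the difference was positive in 10 and negative in 10, and of the 20 cholesterol synthesis genes positive in 17. Cells with only Y-linked reads were 0 of 68 and 0 of 65 in Pard3HMKO at E19.5 and 13 of 30 and 12 of 25 at P0. In Pard3WT they were 9 of 61 and 16 of 71, and then 50 of 58 and 50 of 60. The part of sex in these birth differences was not tested.

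At P0 itself, 6 members were higher and 1 lower in Pard3HMKO than in Pard3WT livers (10.5% of genes higher, 11.3% lower). Scd1 stood at 274 and 192 CPM against 4.87 and 2.93 in controls (5.90 ± 0.42 log2 units, adjusted p = 3.55e-11). Fasn stood at 258 and 221 against 30.0 and 29.6 (3.01 ± 0.17, adjusted p = 1.96e-15), Acly at 358 and 291 against 38.2 and 53.3 (2.83 ± 0.16, adjusted p = 1.13e-15) and Srebf1 at 208 and 239 against 28.9 and 38.4 (2.73 ± 0.20, adjusted p = 1.15e-12). No knockout library came near a control library in these 4 genes. Acaca was higher by 1.25 ± 0.20 (adjusted p = 1.13e-05) and Elovl6 by 1.18 ± 0.16 (adjusted p = 4.06e-07). Without cells holding other markers, which left 6 knockout cells in the first library and dropped the second from the fit, Acaca missed the threshold (0.99, adjusted p = 0.12). Mlxipl was lower (-0.63, adjusted p = 0.033), a call lost without either knockout library (-0.78 and -0.50) or the second control library (-0.34). Me1 (0.08), Thrsp (-0.93) and Pnpla3 (0.50) did not pass. The median cell held 299 and 144 CPM of Scd1 in the knockout libraries and 0 in both control libraries.

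The knockout libraries at P0 held 30 and 25 cells, of which 24 and 25 held markers of another type, mostly erythroid. The erythroid sums of both genotypes overlapped (2296.2 and 7601.4 CPM in Pard3HMKO, 4422.1 and 2968.4 in Pard3WT). Macrophage markers summed to 87.0 and 60.6 CPM in the knockouts and 586.1 and 200.5 in controls, and adipocyte markers to 0.4 in each knockout library against 133.7 and 105.3. Hepatocyte markers were at 124371 and 135065 CPM against 153686 and 159244. Cells with only Y-linked reads were 13 of 30 and 12 of 25 in the knockouts and 50 of 58 and 50 of 60 in controls. The part of cell type and sex in the differences was not tested. Of the 45 other genes 12 were higher and 12 lower. Scd2 stood at a mean of 888 CPM against 7.74 (6.84 log2 units), while Elovl2 (139 against 769 CPM, -2.47), Insig2 (-2.82) and Acsl1 (-1.88) were lower. Cholesterol synthesis genes were higher in 17 of 20 and lower in 1.

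At P14, 5 members were higher and 2 lower in Pard3HMKO (8.99% of genes higher, 7.67% lower). Scd1 stood at 192 and 122 CPM against 3.58 and 8.43 (4.72 ± 0.40, adjusted p = 1.87e-09), Srebf1 at 173 and 142 against 15.9 and 22.4 (3.04 ± 0.21, adjusted p = 2.58e-13) and Acly at 156 and 116 against 36.3 and 38.6 (1.86 ± 0.15, adjusted p = 2.29e-11). The groups did not overlap. Fasn was at 107 and 73.0 against 13.6 and 15.7 CPM (2.62 ± 0.17, adjusted p = 1.11e-13). Its reads were uneven: 1 cell held 50.4% of them in the first knockout library and 25.6% in the second, and the median cell held 19.53 and 26.9 CPM against 4.12 and 6.26. Elovl6 was higher (2.12 ± 0.18, adjusted p = 4.69e-11). Me1 went the other way, at 11.4 and 22.7 against 45.1 and 48.5 CPM (-1.46 ± 0.27, adjusted p = 0.000153), as did Thrsp, at 0.355 and 0.115 against 34.0 and 24.6 CPM (-6.87 ± 1.81, adjusted p = 0.00732). Without the first or the second knockout library Thrsp was at -7.94 and -6.35 and missed the threshold (adjusted p = 0.0639 and 0.113). Acaca (0.38), Mlxipl and Pnpla3 did not pass. Of the 35 and 24 knockout cells all but 2 held markers of another cell type, and leaving those cells out leaves 2 cells, in which Fasn (-2.08) and Elovl6 (-9.35) were lower. Cells with only Xist reads were 30 of 35 and 18 of 24 in the knockouts, and cells with only Y-linked reads 36 of 56 and 42 of 57 in the controls, so sex and genotype cannot be told apart at P14. Of the 45 other genes 13 were higher and 6 lower, with Acsl3 (3.06), Scd2 (3.73) and Srebf2, the sterol-sensing relative of Srebf1 (2.89), among the higher and Insig2 (-2.60) among the lower. All 20 cholesterol synthesis genes were higher.

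From P0 to P14 the knockouts changed too, with 5 members lower and 1 higher (12.7% and 12.0% of genes): Fasn fell by 1.41, Acly by 1.25, Elovl6 by 2.50 and Acaca by 0.80 log2 units. Acaca missed the threshold without the first P0 (-0.61) or the second P14 library (-0.65), and the calls of Srebf1 (-0.50, adjusted p = 0.0485) and Mlxipl (0.59, adjusted p = 0.0471) were lost without most single libraries, with Srebf1 between -0.65 and -0.37. Srebf1 had the smallest fall of the 5 and kept 173 and 142 CPM at P14. The difference of these changes between genotypes passed in 4 members, lower in 3 and higher in 1 (6.47% and 9.14% of genes): Me1 (-1.54, adjusted p = 0.00396), Acly (-0.96, adjusted p = 0.000967), Acaca (-0.87, adjusted p = 0.0322) and Elovl6 (0.94, adjusted p = 0.00419). Acly alone of them kept its call without each library. Me1 was at -1.12 without the first P14 knockout library, Elovl6 at 0.72 and 0.74 without the second P0 or the first P14 control library, and Acaca was lost without any of 4 libraries, with -0.58 without the first P0 control library. Without cells holding other markers, Me1 and Acaca missed the threshold and Elovl6 changed sign (-10.72), with 2 knockout cells left at P14.

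**Figure D3:**
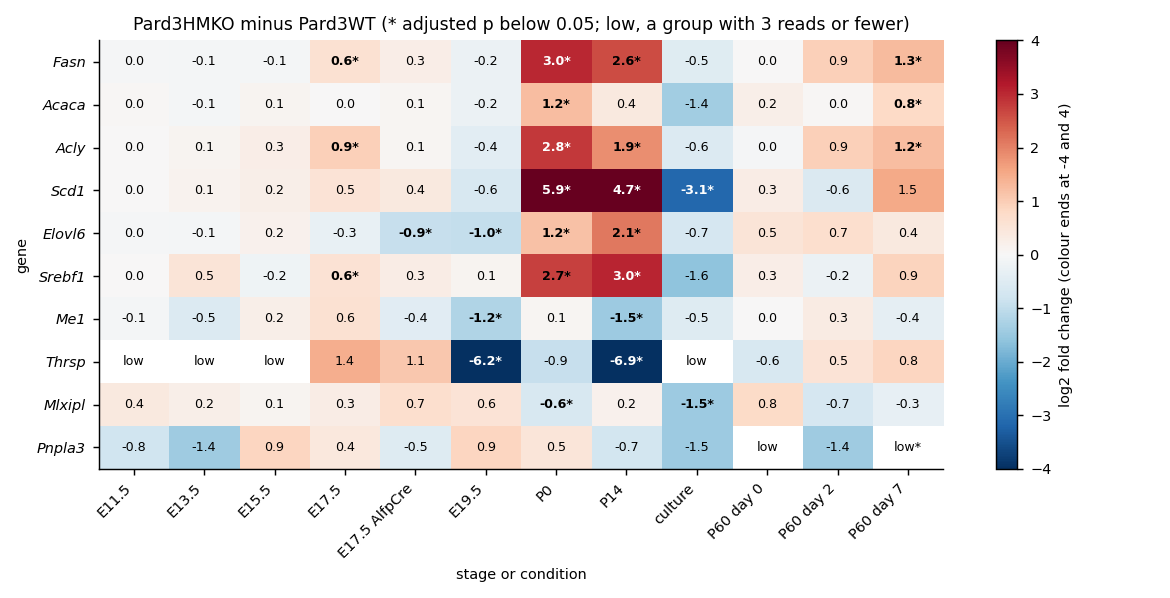
Log2 fold change of each of the 10 genes between Pard3HMKO and Pard3WT in 12 conditions, from E11.5 to the cultures and hepatectomy days, with an asterisk for adjusted p below 0.05 and "low" for groups of at most 3 reads. Colours end at -4 and 4. The strongest block lies at P0 and P14, where Scd1 reaches 5.90 and 4.72.

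Earlier stages gave few differences between genotypes. At E11.5, E13.5 and E15.5 no member was called by edgeR or by DESeq2. At an unadjusted p below 0.05 there was 1, Srebf1 at E13.5, with 128 and 127 against 103 and 76.7 CPM. Over all 18572 genes, such p-values numbered 513 at E11.5, 665 at E13.5 and 1440 at E15.5. Few genes were called at all on these days (0.0485% higher and 0.0269% lower at E11.5, 0.0% both ways at E13.5, 0.14% and 0.0969% at E15.5). Acly, for one, stood at 93.7 and 98.3 against 94.5 and 97.5 CPM at E11.5.

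At E17.5, 3 members were higher in Pard3HMKO and none lower (7.09% of genes higher, 7.86% lower). Acly stood at 226 and 240 CPM against 136 and 106.3 in controls (0.94 ± 0.15, adjusted p = 1.61e-05), with no overlap, and kept its call without each library. Fasn stood at 97.8 and 111 against 62.2 and 74.7 CPM (0.61 ± 0.16, adjusted p = 0.00675) and Srebf1 at 31.4 and 28.1 against 17.4 and 22.0 (0.59 ± 0.20, adjusted p = 0.0364). Fasn missed the threshold without the second knockout (0.51) or the first control library (0.48), and Srebf1 without either knockout library (0.51 and 0.67) or the first control library (0.44). Stellate cell markers summed to 111.1 and 128.4 CPM in the knockouts and 30.7 and 32.9 in controls, and their part was not tested. Among the 45 other genes 7 were higher, such as Mbtps1, the protease that first cuts SREBP proteins (1.33), and 12 lower, such as Lpin2 (-1.21), Dgat2, which makes triglyceride (-0.96), and Acsl1 (-0.95). Of the cholesterol genes 6 were higher and 3 lower.

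At E19.5 the direction was the other way, with 3 members lower in Pard3HMKO and none higher (3.94% of genes lower, 3.01% higher). Higher calls made 43.3% of all calls, and 31% with median-ratio (RLE) scaling. Elovl6 stood at 157 and 132 CPM against 242 and 320 (-0.96 ± 0.16, adjusted p = 6.27e-05), with no overlap. It kept its call without each library, and missed it without cells holding other markers (-0.97, adjusted p = 0.0796). Me1 stood at 10.6 and 11.2 against 26.9 and 22.7 CPM (-1.19 ± 0.27, adjusted p = 0.00421) and Thrsp at 0.0990 and 0.166 against 13.46 and 5.70 (-6.16 ± 1.77, adjusted p = 0.0308). Me1 missed the threshold without the first knockout (-1.15) or the first control library (-1.06), and Thrsp without any 1 of the 4 libraries (-5.41 to -6.65, adjusted p from 0.0521 to 0.29). Thrsp reads were in 23 of 61 and 11 of 71 control cells and in 2 of 68 and 3 of 65 knockout cells. Cells with only Xist reads were 61 of 68 and 52 of 65 in the knockouts and 23 of 61 and 22 of 71 in the controls, and the part of sex was not tested. In the list of 45 other genes 10 were lower and none higher, among them Lpin1 (29.1 against 220 CPM, -2.92), Elovl5 (-1.22), Lpin2 (-1.04) and Acsl1 (-0.79). Of the cholesterol genes 2 were higher and 2 lower.

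With Alfp-Cre at E17.5, Elovl6 was the 1 member called, at 102 and 87.3 CPM in Pard3HMKO against 182 and 175 (-0.92 ± 0.16, adjusted p = 0.000132), with 3.05% of genes lower and 2.23% higher. The groups did not overlap, but without cells holding other markers the change was -0.63 (adjusted p = 0.659). With cells weighted equally 4 members were called, 3 of them higher. Acly stood at 351 and 282 against 311 and 289 CPM and Srebf1 at 169 and 145 against 119 and 136, and neither passed. Among 45 other lipid genes 3 were lower, and of the cholesterol genes 1 was higher.

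YapHMKO livers at E15.5 had no member called by edgeR or DESeq2 (0.145% of genes higher, 0.156% lower). At an unadjusted p below 0.05 there was 1, Scd1 (73.8 and 40.2 against 23.8 and 35.9 CPM), among 1814 of 18572 genes. For the E17.5 libraries labelled YapHMKO, edgeR called none and DESeq2 called 1, against 6.68% of genes higher and 7.71% lower, and the count was 5 with cells weighted equally and 3 with no filter or with only the compared libraries. With no adjustment 4 members had p below 0.05, as did 4613 of all 18572 genes. These members were Acly, at 186 and 191 against 152 and 136 CPM (0.39, adjusted p = 0.0724), Elovl6, at 93.1 and 95.2 against 124 and 120, Me1, at 13.3 and 14.8 against 21.9 and 19.3, and Thrsp, at 0.701 and 0.936 against 6.03 and 8.28. In the libraries labelled as double knockouts, Acly stood at 207 and 224 against 144 and 124 CPM (0.69 ± 0.15, adjusted p = 0.000923), the 1 member called (6.88% of genes higher, 7.72% lower), with an adjusted p of 0.153 without cells holding other markers. With cells weighted equally 4 members were called. The other lipid synthesis genes counted 1 higher and 0 lower at E15.5, 3 and 16 for the labelled YapHMKO, and 4 and 14 for the labelled double knockouts.

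After 2 days in culture the pathway differed from its level in E15.5 liver. Between E15.5 livers and E15.5 tissue cultured for 2 days with no compound (Pard3WT and YapWT controls averaged, scaled jointly over all RNA libraries), 2 members rose and 4 fell, against 17.0% of genes in each direction. Over 4 libraries a side, Acly went from a mean of 189 ± 17.8 CPM in vivo to 49.9 ± 12.51 in culture (SD, -1.92, adjusted p = 3.99e-16), Elovl6 from 95.1 to 27.3 (-1.82, adjusted p = 5.73e-10), Fasn from 104 to 44.0 (-1.24, adjusted p = 3.04e-07) and Srebf1 from 55.6 to 26.1 (-1.12, adjusted p = 0.000837). For these genes the libraries of both sides did not overlap. With cells weighted equally the falls of Fasn (-0.33) and Srebf1 (-0.42) missed the threshold. Me1 rose from 7.88 to 20.2 CPM (1.39, adjusted p = 1.37e-06). Thrsp also passed (6.32, adjusted p = 0.00983), but its sides overlapped at 0 CPM and the call was lost without the first Pard3WT culture library (3.09, adjusted p = 1). Cultured cells held mainly Xist reads, the in vivo Pard3WT cells Y-linked reads and the in vivo YapWT cells Xist reads. Among the 45 other genes 6 rose and 23 fell, with Insig1 (-4.19), Idh1 (-2.85), Tecr (-2.66) and Acsl1 (-2.15) in front, and all 20 cholesterol synthesis genes fell. The cultured tissue was 2 days older than the E15.5 livers, so culture and age cannot be told apart here. Of the 4 members that fell, Srebf1 also fell in Foxa3-Cre Pard3WT livers from E15.5 to E17.5. Less firmly, Fasn and Acly fell and Elovl6 rose in those livers over the same days.

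PD raised 3 members and lowered none in Pard3WT cultures (7.99% of genes higher, 6.8% lower). Scd1 went from 183 and 102 CPM in controls to 332 and 664 (1.81 ± 0.46, adjusted p = 0.0148) and Me1 from 38.0 and 32.9 to 139 and 150 (2.02 ± 0.29, adjusted p = 4.5e-05), with no overlap in either. Scd1 missed the threshold without the second control (1.44) or the second PD library (1.22). Thrsp went from 1.16 and 0 CPM to 8.31 and 18.3 (4.39 ± 1.13, adjusted p = 0.0128), but 1 cell held 97.5% of its reads in the first PD library and another 92.4% in the second. Without the second control or second PD library it was at 3.50 and 3.71 and was not called. Fasn was at 43.0 and 92.0 CPM with PD and 83.5 and 78.7 without, overlapping. U0126 raised 2 members (7.39% of genes higher, 5.74% lower): Scd1, at 675 and 628 CPM (2.19 ± 0.47, adjusted p = 0.00467, and 1.83 with adjusted p = 0.082 without the second control library), and Me1, at 181 and 155 (2.24 ± 0.30, adjusted p = 1.48e-05). Thrsp had 3 reads with U0126 and 13 in the controls. Cells with markers of another type were 9 of 17 and 4 of 15 in the controls, 1 of 23 and 1 of 24 with PD, and 1 of 23 and 0 of 22 with U0126. Without such cells Scd1 and Me1 stayed past the threshold with both compounds. Each compound was compared with the same 2 control libraries, and PD and U0126 were not tested against each other.

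Among the 45 other genes, 16 rose and 3 fell with PD and 12 rose and none fell with U0126. Acsl1 rose by 3.15 and 3.04 log2 units, Elovl2 by 1.91 and 1.82 and Tecr by 1.34 and 1.55. Of the cholesterol genes 5 rose with PD and 3 with U0126.

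TPPB lowered 4 members and raised none in Pard3WT cultures (5.35% of genes lower, 1.44% higher). Scd1 went from 183 and 102 CPM to 3.96 and 12.1 (-4.13 ± 0.52, adjusted p = 7.25e-05) and Mlxipl, the glucose-responsive factor, from 78.8 and 85.2 to 19.6 and 15.9 (-2.21 ± 0.34, adjusted p = 0.000131). Both kept their calls without each library. Acly went from 85.9 and 95.4 to 45.4 and 35.6 CPM (-1.16 ± 0.28, adjusted p = 0.0111) and Srebf1 from 57.6 and 47.9 to 11.6 and 19.7 (-1.75 ± 0.51, adjusted p = 0.0443). The groups did not overlap, but Acly missed the threshold without the second control (-1.09) or second TPPB library (-0.996), with cells weighted equally (-0.52) and without cells holding other markers (-0.76), and Srebf1 without any 1 of the 4 libraries (-1.42 to -2.19). In the Acly control, 46.9% of the reads of the second library were in 1 cell. Hepatocyte markers summed to 31579.4 and 31338.6 CPM in the controls and 6138.8 and 6156.7 with TPPB, and cholangiocyte markers to 167.3 and 80.6 and to 200.3 and 373.0, and their part in these falls was not tested. In the list of 45 other genes 15 fell and none rose, led by Elovl2 (-2.53), Acsl1 (-2.31), Fads6 (-2.19) and Tecr (-1.30), and 14 of 20 cholesterol genes fell.

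Adding PD to TPPB raised 5 members over TPPB alone (14.0% of genes higher, 12.1% lower). Scd1 went from 3.96 and 12.1 to 516 and 473 CPM (5.93, adjusted p = 8.1e-07), Me1 from 32.2 and 26.8 to 161 and 154 (2.42, adjusted p = 1.93e-06) and Acly from 45.4 and 35.6 to 136 and 134 (1.74, adjusted p = 7.35e-05). All libraries with both compounds were above those with TPPB alone. Srebf1 rose by 1.93 (adjusted p = 0.00825), which missed the threshold without the first TPPB (1.59) or the second TPPB plus PD library (1.31), and Mlxipl by 1.26 (adjusted p = 0.00659), which missed it without the second TPPB library (1.12). Between TPPB plus PD and PD alone edgeR called no member and 0.0% of genes in either direction, and DESeq2 called 1 member. Of all 16715 genes, 647 had an unadjusted p below 0.05, with 1 member among them, Thrsp. Its 252 reads with PD stood against none with both compounds, at least 92.6-fold lower against the floor of 3 reads, though nearly all were in 1 cell of each PD library. Among 45 other lipid genes 23 rose and 1 fell when PD was added to TPPB, and 19 of 20 cholesterol genes rose.

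YapWT cultures gave the same compounds a separate set of libraries. PD raised 3 members (8.77% of genes higher, 8.74% lower): Scd1 from 129 and 56.8 to 701 and 754 CPM (2.97, adjusted p = 0.000432), Me1 from 41.4 and 24.5 to 222 and 160 (2.53, adjusted p = 3.05e-06) and Acly from 104 and 54.0 to 222 and 171 (1.32, adjusted p = 0.00198). No control library reached a PD library for these genes. Acly missed the threshold without the second control library (0.92, adjusted p = 0.0636). TPPB lowered 4 members (7.16% of genes lower, 3.29% higher). Mlxipl went from 69.7 and 58.2 to 20.7 and 13.8 CPM (-1.89, adjusted p = 0.00054). The calls of Scd1 (-2.005, adjusted p = 0.0112), Acly (-0.97, adjusted p = 0.0277) and Srebf1 (-1.84, adjusted p = 0.026) were lost without the first control library, at -1.29, -0.42 and -0.28, and without the first TPPB library, at -1.99, -0.98 and -1.42. Scd1 and Acly also lost theirs without the second TPPB library. The 2 control libraries themselves differed, with Srebf1 at 59.3 and 12.2 CPM and Elovl6 at 57.6 and 17.4. Among the 45 other genes, 22 rose and 1 fell with PD, and 15 fell with TPPB.

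Thrsp set the lines apart in culture. All 10 YapWT and YapHMKO culture libraries held it at 14.0 to 37.6 CPM, with or without compounds, and in the first YapWT control library 18 of 19 cells had a read. The Pard3WT and Pard3HMKO cultures had it in at most 4 cells of any library. Whether tissue batch or line differed between them is not in the labels, and the difference was not tested.

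Pard3HMKO tissue in culture with no compound had 2 members lower and none higher than Pard3WT tissue (3.36% of genes lower, 1.54% higher). Scd1 stood at 15.9 and 16.3 CPM against 183 and 102 (-3.15 ± 0.49, adjusted p = 0.0011) and Mlxipl at 28.8 and 30.4 against 78.8 and 85.2 (-1.47 ± 0.33, adjusted p = 0.00928). Neither gene overlapped between genotypes. Mlxipl missed the threshold without either knockout library (-1.43 and -1.50) or the second control library (-1.41, adjusted p = 0.0508). Of the Scd1 reads in the knockouts 65.3% and 49.3% were in 1 cell of each library, and the median cell held 3.95 and 5.31 CPM. Srebf1 stood at 17.3 and 17.1 against 57.6 and 47.9 CPM (-1.62, adjusted p = 0.0772) and Acaca at 10.0 and 8.85 against 18.5 and 30.8 (-1.38, adjusted p = 0.0503), with no overlap but past no threshold. Hepatocyte markers summed to 10301.5 and 10208.1 CPM in the knockouts against 31579.4 and 31338.6, and cholangiocyte markers to 159.5 and 388.2 against 167.3 and 80.6. The part of these cells was not tested. In the list of 45 other genes 9 were lower, among them Elovl2 (-2.59), Acsl1 (-1.74), Fads6 (-1.53) and Tecr (-1.29), and 10 of 20 cholesterol genes were lower. This comparison and those of PD, U0126 and TPPB share the Pard3WT control libraries.

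In Pard3HMKO cultures PD raised 6 members (9.01% of genes higher, 5.51% lower) and U0126 raised 5 (10.3% higher, 7.48% lower). Scd1 went from 15.9 and 16.3 CPM to 396 and 233 with PD (4.29, adjusted p = 2.54e-05) and 564 and 496 with U0126 (5.04, adjusted p = 4.65e-06). Me1 went from 25.4 and 24.8 to 89.1 and 83.5 with PD (1.78, adjusted p = 0.00015) and 128 and 176 with U0126 (2.60, adjusted p = 1.35e-06). Srebf1 went from 17.3 and 17.1 to 70.8 and 69.5 with PD (2.03, adjusted p = 0.01) and 88.1 and 88.5 with U0126 (2.36, adjusted p = 0.00284). Every treated library was above the untreated ones for these 3 genes. Srebf1 with PD missed the threshold without either control library (adjusted p = 0.088 and 0.104), as did Acaca with PD (1.402) and Mlxipl with PD (1.10) without any 1 of the 4 libraries, and Acaca (1.37) and Acly (1.05) with U0126 without the first control or first U0126 library, and Acaca with U0126 also without the second control library. Thrsp had 123 reads with PD and none without, at least 43.5-fold higher against the floor (adjusted p = 0.00191), with 118 of the reads in the first PD library, 97.5% of them in 1 cell, and was not called without that library (adjusted p = 0.0616). The difference between the PD effects of both genotypes passed for no member by edgeR and for 2 by DESeq2 (0.622% of genes higher, 0.185% lower by edgeR). With no adjustment 4 members had p below 0.05, as did 1884 of all 16715 genes. Among these members were Scd1 at 2.48 ± 0.65 (adjusted p = 0.0976) and Mlxipl at 1.77 (adjusted p = 0.0742). Other lipid genes rose in 17 with PD and 22 with U0126 and fell in none.

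YapHMKO cultures with no compound had 1 member lower than YapWT (5.88% of genes lower, 3.29% higher): Scd1, at 24.9 and 26.3 against 129 and 56.8 CPM (-1.86 ± 0.47, adjusted p = 0.0207). It missed the threshold without either YapHMKO library (-1.82 and -1.90) or the first YapWT library (-1.15). Hepatocyte markers were at 10789.4 and 14532.3 CPM against 57689.6 and 35199.0, and their part was not tested. PD raised 7 members in YapHMKO tissue (11.2% of genes higher, 8.76% lower), with Scd1 at 333 and 496 CPM (4.02, adjusted p = 2.78e-05), Me1 at 99.3 and 139 (2.15, adjusted p = 1.25e-05) and Acly at 117 and 170 against 46.5 and 45.7 (1.64, adjusted p = 0.000205). All PD libraries were above the untreated ones in these genes. The other 4, Acaca (1.18), Elovl6 (1.73), Srebf1 (1.88) and Pnpla3 (4.54), missed the threshold without the second PD library, at 0.72, 1.01, 1.71 and 3.81. Acaca also missed it without the second control library (0.74), Srebf1 without the first (1.59) and Pnpla3 without either (4.05 and 5.31). The difference of the PD effects between YapHMKO and YapWT passed for no member by edgeR and 1 by DESeq2 (2.73% of genes higher, 0.975% lower). At an unadjusted p below 0.05 there was 1 member, Mlxipl, among 2839 of 16715 genes. Among 45 other lipid genes 1 was higher and 13 lower in untreated YapHMKO tissue, and PD raised 23 and lowered 1.

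**Figure D4:**
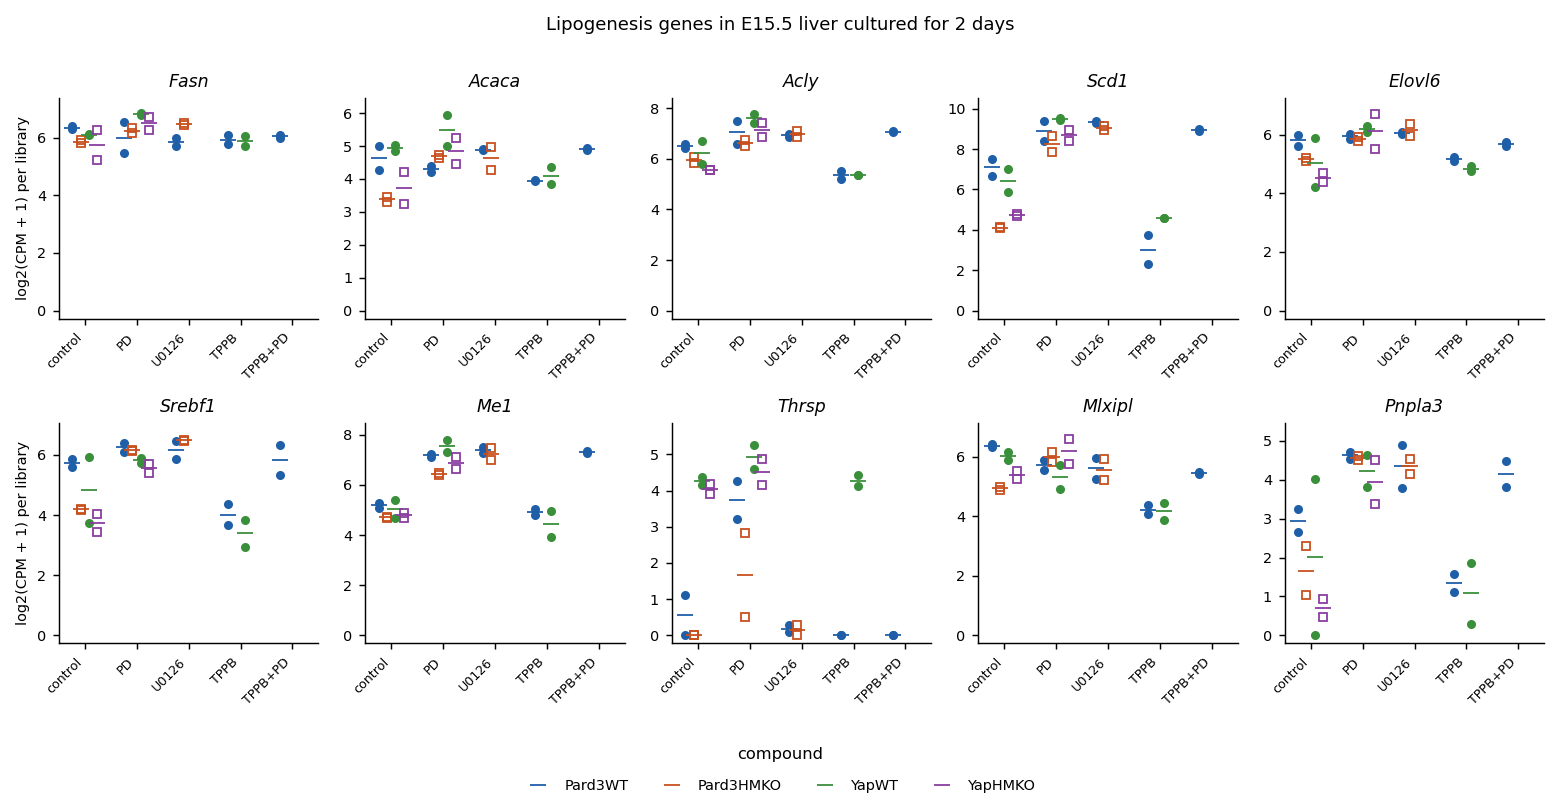
Level of each of the 10 genes in 2-day cultures of E15.5 liver, as log2(CPM + 1), by compound and genotype. Filled circles are control genotypes, open squares knockouts, and bars means. Scd1 is lowest with TPPB in Pard3WT tissue (3.96 and 12.1 CPM), low in untreated Pard3HMKO tissue (15.9 and 16.3 CPM), and at 233 CPM or more in every library with PD or U0126.

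Adult livers before hepatectomy held other levels than livers at P14. In a joint scaling, 8 members were higher and 1 lower at P60 than at P14 (7.18% of genes higher, 6.15% lower), comparing different mouse lines. Scd1 had means of 1428 and 6.89 CPM (7.70, adjusted p = 6.6e-15), Elovl6 44.6 and 4.61 (3.28, adjusted p = 2.41e-11), Fasn 103 and 16.8 (2.62, adjusted p = 7.54e-11) and Srebf1 85.2 and 22.0 (1.95, adjusted p = 0.00017). The P60 libraries were above those of P14 in all of these genes. Acly (1.29), Me1 (1.55), Mlxipl (1.27) and Thrsp (3.79) were higher too, but Thrsp and Mlxipl missed the threshold without the first P60 library (2.44 and 1.07) or the first P14 library (4.03 and 1.21), and Thrsp also without the second P14 library (3.57). Pnpla3 was lower (adjusted p = 0.00298), with 2 reads at P60 and 73 at P14, of which 64 were in the second P14 library, and was not called without that library (adjusted p = 0.304) or the first P60 library (adjusted p = 0.0768). Line and age cannot be told apart here. Among the 45 other genes 17 were higher and 5 lower, and 18 of 20 cholesterol genes were higher.

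On day 2 after hepatectomy 3 members fell and none rose in Pard3WT livers, against 9.92% of genes lower and 5.78% higher of 15391 tested. With no filter on low counts, or without cells holding other markers, 5 members were called lower. A difference between the regulators and the enzymes was not tested. Srebf1 went from 65.2 and 43.2 CPM to 8.87 and 6.97 (-2.81 ± 0.52, adjusted p = 0.00115), Mlxipl from 56.4 and 42.2 to 7.50 and 19.3 (-1.80 ± 0.53, adjusted p = 0.0284) and Thrsp from 480 and 114 to 2.90 and 14.9 (-4.92 ± 1.42, adjusted p = 0.0327). In all 3 genes both day 2 libraries were below both day 0 libraries. Srebf1 kept its call without each library. Mlxipl lost it without either day 0 library (-1.59 and -1.95) or the first day 2 library (-1.35), and Thrsp without the first day 0 (-3.55) or either day 2 library (-4.32 and -6.69). Fasn stood at 80.1 and 51.3 CPM on day 0 and 26.6 and 65.2 on day 2, overlapping, and Scd1 at 522 and 1277 and then 769 and 612. The first day 2 library held 7 cells, with erythroid markers at 5113.5 CPM, and cholangiocyte markers summed to 551.8 and 1940.9 CPM in the day 2 libraries against 218.4 and 68.7 on day 0. Their part was not tested. In the list of 45 other genes 15 fell and 7 rose, with Acsl1 (-3.22), Dgat2 (-1.97) and Acss2 (-1.94) lower. Cholesterol synthesis genes went the other way, with 11 higher and 2 lower of 20.

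Higher levels returned by day 7. From day 2 to day 7, 4 members rose (12.3% of genes higher, 9.27% lower). Srebf1 stood at 87.7, 54.5, 97.0 and 40.5 CPM (3.18 ± 0.50, adjusted p = 0.000183), Mlxipl at 102, 68.8, 68.2 and 57.6 (2.39, adjusted p = 0.00233) and Thrsp at 359, 124, 535 and 82.3 (4.82, adjusted p = 0.0229). All 4 day 7 libraries were above both day 2 libraries. The day 7 libraries lay in close pairs, described below, so these p-values may be too small. Thrsp missed the threshold without the first (4.21) or second day 2 library (6.57), and Acly (0.80, adjusted p = 0.0405) without either day 2 library or the first or the third day 7 library (adjusted p from 0.1 to 0.248). Between day 7 and day 0 no member was called by edgeR or DESeq2, none had an unadjusted p below 0.05, and 0.0% of all genes were called. Over all 15391 genes, 633 had an unadjusted p below 0.05. Acsl1 (3.23), Acss2 (1.96) and Dgat2 (1.92) rose from day 2 to day 7, among 18 of the 45 other genes that rose and 7 that fell. Of the cholesterol genes 15 fell and 3 rose.

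Within the control libraries of 1 day the members were not level, and not together. The libraries with the highest Thrsp and Srebf1 (the first on day 0, the first and the third on day 7) had the lowest Scd1, at 522, 565 and 723 CPM, against 1277, 1343 and 1421 in the rest. These are 6 libraries, and no test was made. On day 7 the first and the third library, and the second and the fourth, were close pairs across all genes. They may therefore not be separate cases of the pattern.

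In Pard3HMKO livers 2 members fell from day 0 to day 2 (10.1% of genes lower, 8.82% higher). Srebf1 went from 86.5 and 42.9 to 7.38 and 5.82 CPM (-3.29, adjusted p = 0.000199) and Mlxipl from 95.5 and 71.6 to 8.47 and 9.31 (-3.23, adjusted p = 0.000481), with no overlap. The difference of the day 2 effects between genotypes passed for no member by edgeR or DESeq2 (1.83% of genes higher, 0.526% lower). At an unadjusted p below 0.05 there was 1 member, Acly, among 1908 of 15391 genes. From day 2 to day 7, 6 members rose (10.7% of genes higher, 9.67% lower): Srebf1 by 4.30 (adjusted p = 9.69e-06), Mlxipl by 2.73 (adjusted p = 0.000726), Thrsp by 5.12, Scd1 by 2.64, Acaca by 1.21 and Acly by 1.09. The last 4 missed the threshold without the first or the second day 2 library (adjusted p from 0.0662 to 0.16). Among 45 other lipid genes 18 rose and 5 fell. The day 7 libraries of this genotype also lay in close pairs, so the day 7 p-values may be too small.

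Compared with controls of the same day, no member differed on day 0 or day 2 by edgeR or DESeq2 (0.0% of genes each way on day 0, 1.97% higher and 1.21% lower on day 2). None on day 0 and 2 on day 2 had an unadjusted p below 0.05: Fasn, at 87.8 and 91.8 against 26.6 and 65.2 CPM (0.94, adjusted p = 0.291), and Acly, at 83.9 and 82.5 against 40.7 and 45.7 (0.94, adjusted p = 0.121). Over all 15391 genes, 994 on day 0 and 2010 on day 2 had such an unadjusted p. On day 2, 7 of the 45 other genes were higher and 2 lower, with Insig1 (2.18), Acsl3 (1.79) and Fads2 (1.68) higher and Usf1 (-2.39) lower, and 14 of 20 cholesterol genes were higher.

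On day 7, 4 members were higher in Pard3HMKO and none lower (2.76% of genes each way). Acly ran from 118 to 231 CPM with a median of 178 in the 6 knockout libraries, against 92.9, 58.5, 103 and 47.5 in controls (1.24 ± 0.20, adjusted p = 0.000706). Fasn ran from 129 to 189 with a median of 171, against 88.4, 51.7, 90.8 and 38.7 (1.27 ± 0.26, adjusted p = 0.0067), and Acaca from 27.7 to 39.1 with a median of 32.4, against 26.3, 12.2, 24.6 and 12.7 (0.79 ± 0.23, adjusted p = 0.0449). No knockout library overlapped a control library in these genes. The day 7 libraries lay in close pairs, so leaving out 1 keeps its near neighbour and the p-values may be too small. Across genes, the chi-square per gene between libraries was 27.3 for the first and the third and 34.5 for the second and the fourth control library, against 77.2 to 104 for the other control pairs. It was 37.6, 24.4 and 25.8 for knockout libraries 1 and 2, 3 and 4, and 5 and 6, against 49.5 to 187 for the rest. Acly and Fasn kept their calls without each library, Fasn missed its own without cells holding other markers (0.97, adjusted p = 0.108), and Acaca did not without 7 of the 10 libraries, with values from 0.64 without the second control library to 0.82 without the fifth knockout library. Scd1 ran from 1705 to 5138 CPM against 565, 1343, 723 and 1421, with no overlap but an adjusted p of 0.0884 (1.501). Pnpla3 had 153 reads in the 6 knockout libraries and 3 in the 4 controls (adjusted p = 0.00847). Without cells holding other markers, Acaca (0.57, adjusted p = 0.575) and Pnpla3 (adjusted p = 0.22) missed the threshold too. Such cells were 22 of 26, 26 of 31, 12 of 12, 9 of 9, 18 of 27 and 11 of 28 in the knockouts. In the controls they were 6 of 46, 12 of 57, 10 of 40 and 12 of 63. The third and the fourth knockout libraries, of 12 and 9 cells, held the most Scd1 (5138 and 4031 CPM) and Mlxipl (88.8 and 103) and the least Thrsp (143 and 66.6), Me1 (40.0 and 33.1) and Srebf1 (82.0 and 67.3). Hepatocyte markers summed to 139274 to 143346 CPM in the knockouts and 96810.7 to 114144 in controls, and stellate markers to 40.5 to 279.6 against 8.2 to 30.9, and their part was not tested. Among the 45 other genes 9 were higher and 2 lower, and 15 of 20 cholesterol genes were higher.

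**Figure D5:**
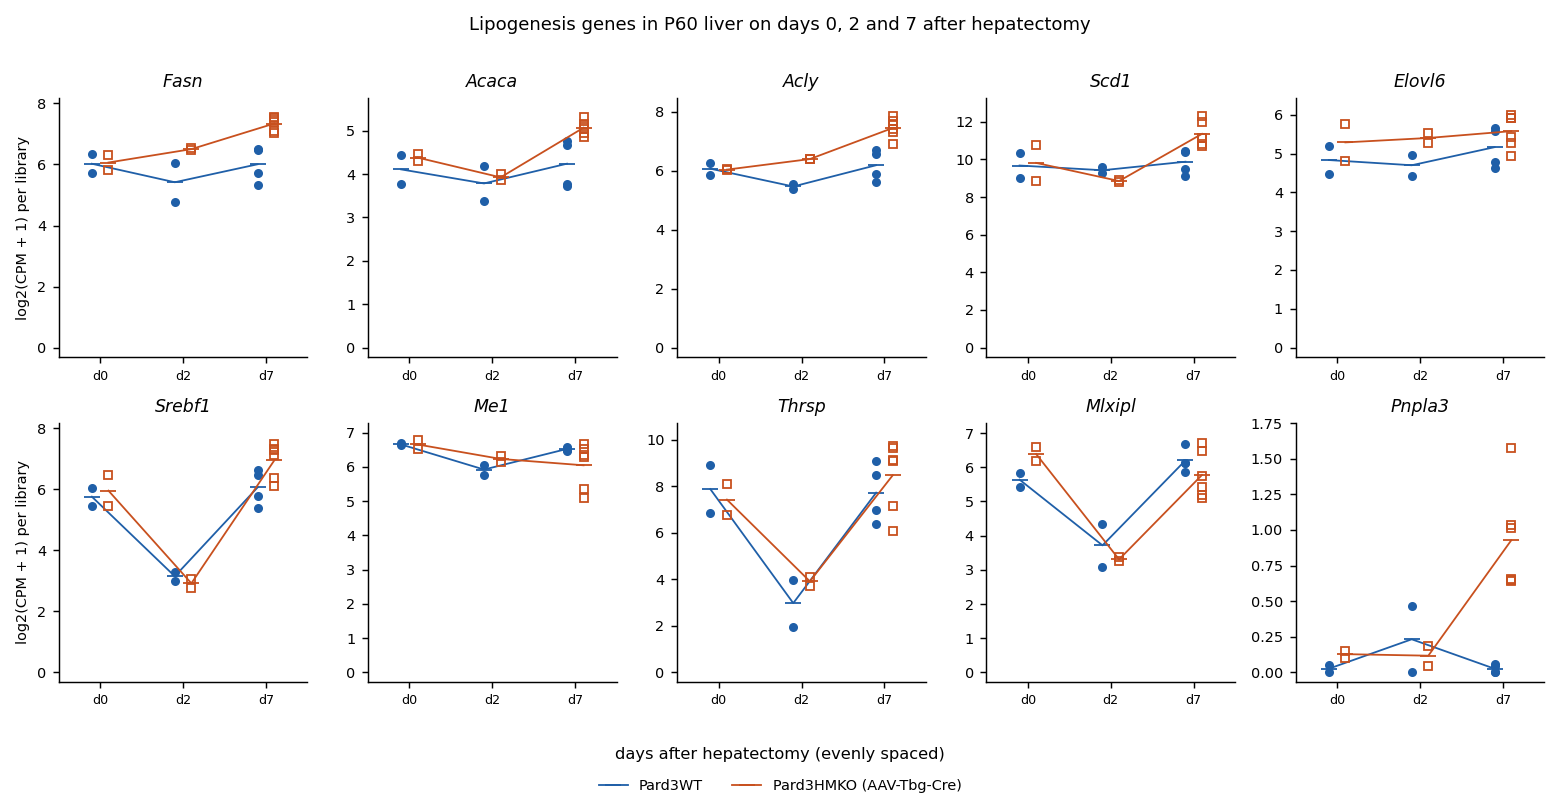
Level of each of the 10 genes in P60 livers on days 0, 2 and 7 of hepatectomy, as log2(CPM + 1), for Pard3WT (blue circles) and Pard3HMKO (open orange squares). Points are libraries, bars are means and lines join the means. Srebf1 and Mlxipl are lowest on day 2 in both genotypes, with Srebf1 between 5.82 and 8.87 CPM, and on day 7 Fasn and Acly are higher in every Pard3HMKO library than in every control.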

How the data were processed

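RNA was measured in single cells and open chromatin in 22 libraries. The deposited RNA tables hold read counts per gene and cell, and 4 further tables hold values the authors made length-normalised, a TPM-like unit. The submitters' processing notes name FastQC 0.11.9, Trimmomatic 0.39, HISAT2 2.1.0 and GRCm38/mm10 for RNA. For ATAC they name MACS 1.4.2, HOMER, SAMtools 1.3.1, Bowtie2 2.2.5 and Trimmomatic 0.38. No source used here names the counting tool or annotation. The peak lists carry the score the authors' caller gave each peak, 50 or more, and no score was compared between libraries. A promoter window had a peak where they shared at least 1 base.

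Counts of all deposited cells were summed per library. Cells were not clustered, doublets were not called, and leaving out cells with other markers was an alternative. Tests used edgeR 4.0.16 in R 4.3.3 (quasi-likelihood, TMM scaling, filterByExpr, Benjamini-Hochberg adjustment over all genes tested, called below 0.05), in 5 fits: wild type, Cre lines in vivo, cultures, P60, and all libraries for culture against liver and P60 against P14. Values after ± are standard errors unless marked SD. A fold against a group with no reads used a floor of 3 counts over the group. Alternatives were DESeq2 1.42.0, RLE scaling, no filter, equal weight per cell, only the libraries compared, a replicate block, no cells with other markers, and each library left out. On simulated counts for the birth comparison, 47% of genes changed by 1 log2 unit and 95% of those changed by 2 were recovered, with 10 false calls among 152. The shares were 23% and 66% for PD in culture (4 of 93 calls false) and 29% and 87% for day 2 after hepatectomy (2 of 118). The simulation changed a small set of genes, all above a CPM floor, and gave each gene the spread typical of its level. The real comparisons called more genes, so these shares need not hold for them or for genes with few reads.

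The members and lists were chosen with earlier results of these data known. All 10 members are named. Of 47 other lipid synthesis genes (45 measured), up to 4 per main comparison are named, those with the smallest adjusted p among called genes with at least 10 CPM in a group. The 6 likest genes were ranked by Pearson correlation of group means, and 20 cholesterol synthesis genes are given as counts. One gene that this rule names is not reported here. Marker lists covered hepatocytes and erythroid, macrophage, endothelial, stellate, cholangiocyte, lymphoid and adipocyte cells.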

Additional observations from a re-analysis of the deposited data

Results flagged for a closer look

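The change from E19.5 to P0 differed between Pard3HMKO and Pard3WT livers by the test of the difference itself in 8 of the 10 genes (edgeR, log2 units, Pard3HMKO minus Pard3WT). The differences were 6.53 for Scd1, 3.25 for Acly, 3.23 for Fasn, 2.61 for Srebf1, 2.14 for Elovl6, 1.5 for Acaca, 1.27 for Me1 and -1.19 for Mlxipl. The first 6 stayed past the threshold without each of the 8 libraries in turn, and the first 5 also without cells holding markers of another type. Leaving out those cells left 6 and 0 Pard3HMKO cells at P0, so that alternative rests on 1 knockout library there. Sex make-up also differed between these groups, and its part was not tested.

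From P0 to P14 the same test passed in 4 genes, with -0.87 for Acaca, -0.96 for Acly, 0.94 for Elovl6 and -1.54 for Me1. Both sets of differences share the P0 libraries, so they are not independent of each other.

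Each of the 10 genes was checked in the 2 groups of 4 and 6 libraries, and 1 of these 20 checks found a library far from the rest: Pnpla3 at 1.98 CPM in the second Pard3HMKO library on day 7 after hepatectomy, with the gap to the next library at 0.656 of the group's range. Chance alone flags about 1 in 20 such checks. In that library 8 of 31 cells held Pnpla3 reads, and 1 cell held 49.3% of them.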

How the results depend on the processing

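Of 156 member calls, 153 were kept by DESeq2, 152 with RLE scaling, 149 with no filter on low counts, 128 with each cell weighted equally and 119 without cells holding markers of another type. With only the libraries compared, 130 of 149 were kept. Leaving out 1 library at a time kept 672 of 836.

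With cells weighted equally, Elovl6 changed sign from E11.5 to E15.5 (-0.21) and from E15.5 to E17.5 (-0.044) in Foxa3-Cre controls, and the members called went from 6 to 2 for the wild-type slope, from 3 to 7 for Pard3HMKO at E17.5 and from 2 to 1 for untreated Pard3HMKO cultures. Without cells holding other markers, which left 6 and 0 Pard3HMKO cells at P0 and 2 and 0 at P14, sign changes came for Fasn (-2.08) and Elovl6 (-9.35) at P14, Thrsp at P0 (8.94) and the Elovl6 difference from P0 to P14 (-10.72), and counts became 3 from P0 to P14 in controls, 1 for Pard3HMKO at E17.5, 1 at E19.5 and 5 for day 2 against day 0. With no filter, counts became 5 for Pard3HMKO at E19.5, 5 for PD, 4 for untreated Pard3HMKO cultures, 5 for day 2 against day 0 and 2 for Pard3HMKO on day 2. DESeq2 called 5 in untreated Pard3HMKO cultures, and only the libraries compared gave 3 from P0 to P14. The cause was not tested. Pairs of a member and a library with a promoter peak numbered 153, and 62 when 50% of the peak had to overlap. How far that rule lowers the count of all genes was not computed.

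Leaving out 1 library gave 3 to 6 members from P0 to P14, 1 to 3 for Pard3HMKO at E17.5, 1 to 2 at E19.5, 1 to 4 for PD, 2 to 3 for TPPB, 1 to 2 for U0126, 1 to 2 for untreated Pard3HMKO cultures, 1 to 3 for day 2, and 0 to 1 for Pard3HMKO on day 2. A replicate block kept 148 of the 156 calls and added 1, and the lost ones included Fasn (adjusted p = 0.0553) and Acaca (0.0924) for Pard3HMKO on day 7. Replicate numbers did not pair the libraries (correlations of deviations from -0.0482 to 0.0656 over 40 comparisons), so the block is only an alternative. Fits that leave 1 library in a group assume that it varies like the other groups.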
